A study of Mus musculus with 35 samples.

Results

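The genes described here are the protein-coding mouse genes whose symbols begin with Srsf and a digit, with Hnrnp, with Snrp, or with Sf3a or Sf3b and a digit. The rule found 52 of the 48709 genes in the count tables, among 21695 annotated as protein-coding: 11 SR protein genes, 20 hnRNP genes, 12 snRNP genes and 9 SF3 genes. No expression value entered the choice, and 5 processed pseudogenes with matching symbols were left out. They were measured in OT-I cytotoxic T lymphocytes (CTLs), CD8+ T cells from mice whose T cells carry 1 transgenic receptor for an ovalbumin peptide. Splenic CD8+ T cells had been activated with antibodies to CD3 and CD28 and expanded in IL-2, the growth factor of activated T cells. The libraries form 7 groups of 5 biological replicates: cells at the start of the experiment (0 h), and cells after 24 h in medium at pH 7.4, pH 7 or pH 6.6. At each pH the medium held either 200 IU/mL of IL-2 or none. The medium was acidified with HCl, dead cells were removed on Ficoll before RNA extraction in every group, and the cells of all groups had grown in IL-2 beforehand.

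Most mammalian genes are transcribed with introns, and the spliceosome removes them. U1 and U2 small nuclear ribonucleoproteins (snRNPs) recognize the ends of the intron, each built on an RNA that carries a ring of Sm proteins. The SF3a and SF3b complexes belong to the U2 snRNP and hold it on the branch site. SR proteins bind exons through RNA recognition motifs and recruit the snRNPs through domains rich in arginine and serine, whereas heterogeneous nuclear ribonucleoproteins (hnRNPs) coat the nascent transcript and often act against the inclusion of exons. In T cells, activation is known to change both the amount of splicing factors and the exons that they select, with CD45 as the best studied case.

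Several of these genes moved together between the conditions, so the bases just upstream of transcription starts are shown for 4 of the genes followed below: Srsf5, which moved against the other SR protein genes, and Srsf2, Hnrnpab and Snrpa, which fell at pH 6.6 with IL-2. Each line holds the 100 bases before a RefSeq start (GRCm38.p6), 5′ to 3′ on the strand of the gene, and overlaps no annotated exon of that strand. They lie at chr12:80945399-80945498 on the plus strand for Srsf5, and on the minus strand at chr11:116853095-116853194 for Srsf2, chr11:51606882-51606981 for Hnrnpab and chr7:27196272-27196371 for Snrpa. Capitals mark CCAAT, the CCAAT box, and CACGTG, an E-box that Myc and related factors can bind, both searched on both strands. The 2 motifs share no letters where they were found.
Srsf5: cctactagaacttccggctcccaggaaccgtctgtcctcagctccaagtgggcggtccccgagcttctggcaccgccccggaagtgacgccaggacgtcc
Srsf2: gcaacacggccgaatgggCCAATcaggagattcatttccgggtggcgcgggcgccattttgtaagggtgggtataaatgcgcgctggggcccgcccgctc
Hnrnpab: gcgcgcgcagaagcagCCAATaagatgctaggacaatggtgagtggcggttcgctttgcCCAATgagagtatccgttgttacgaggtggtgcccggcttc
Snrpa: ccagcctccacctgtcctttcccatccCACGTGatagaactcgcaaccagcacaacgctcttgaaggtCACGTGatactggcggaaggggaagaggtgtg
With the last base before the start counted as -1, CCAAT began at -82 in Srsf2 and at -84 and -41 in Hnrnpab, and CACGTG at -73 and -32 in Snrpa. Snrpa has another RefSeq start, whose 100 bases overlap an annotated exon and are not printed. They held CACGTG at -69. Neither motif was found in these bases of Srsf5. The 100 bases of Snrpg, Snrpd3, Snrpa1, Hnrnph3 and Sf3b1, also followed below, overlap annotated exons and are not printed. Among these, Snrpg, which fell, held CCAAT at -66. Neither motif was found in the 100 bases of Snrpd3 and Snrpa1, which also fell, or of Hnrnph3 and Sf3b1, which rose. Snrpd3 did hold CCAAT in the wider window of 300 bases described next. RefSeq windows of 300 bases (250 before and 50 after a start) were matched for 46 of the 52 genes, 63 windows in all. Snrpd1, Sf3b5 and Hnrnpll, also followed below, had no matched window and were not searched. CACGTG was present in 7 of the 63 windows (11.1%), against 7.15% of all 32851 windows, and CCAAT in 28 (44.4%) against 37.4%. The matches are descriptions of the letters, and binding was not measured.

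The libraries held 16721319 to 34033340 counts on genes (median 24730020), of which the 52 genes took 0.896% to 1.64%. The cells expressed the genes that define CD8+ T cells in every library, with Cd3e at 374 to 631, Cd3d at 282 to 882, Cd8a at 674 to 1596 and Cd8b1 at 212 to 414 CPM (counts per 1000000 counts on genes, scaled by TMM factors). Gzmb, the last gene of this list, varied far more, from 36.7 to 9010 CPM. The summed list had a median of 9431 CPM at pH 7.4 with IL-2, 3331 CPM at pH 6.6 with IL-2 and 2299 CPM at pH 7.4 without IL-2. Markers of B cells, myeloid cells and erythroid cells were at or near 0, with Ms4a1 and Hbb-bs at 0 in 35 of 35 libraries and the summed B cell list at most 6.10 CPM. Of the NK cell markers, Ncr1 was at 0 in 25 libraries, while Klrb1c lay between 8.27 and 94.9 CPM. Replicate 5 at 0 h stood apart. It had 48.3% of its reads aligned to several places, the highest of all libraries, and 1163 CPM summed over the snRNP genes against 722 to 792 in the other 0 h libraries. Comparisons with 0 h are therefore also given without it.

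Of the 52 genes, 50 passed the filter on low counts and were tested. Srsf12 had at most 13 counts in any library and Snrpn, the tissue-restricted Sm protein SmN, at most 3. Per kilobase of merged exon at pH 7.4 with IL-2, the highest mean levels were those of Hnrnpa2b1 (260 CPM per kb), Srsf2 (215) and Hnrnpab (140), and the lowest of the genes tested were those of Hnrnpll (10.1), Hnrnpr (7.83) and Snrpc (6.54). Summed over the 52 genes, the level was 16493 ± 429 CPM (SD, n = 5) at pH 7.4, 14715 ± 596 at pH 7 and 10808 ± 391 at pH 6.6 when IL-2 was supplied. Without IL-2 it was 9149 ± 330 at pH 7.4, 8904 ± 470 at pH 7 and 10774 ± 514 at pH 6.6, and at 0 h it was 11658 ± 692. The 5 libraries at pH 7.4 with IL-2 (15917 to 17090 CPM) all lay above the 5 at pH 6.6 with IL-2 (10282 to 11337), and these lay in the same range as those at pH 6.6 without IL-2 (10075 to 11283). In bulk RNA, fewer cells that express a gene and less RNA per cell cannot be told apart, and every level is relative to the other RNA of its library.

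**Figure D1:**
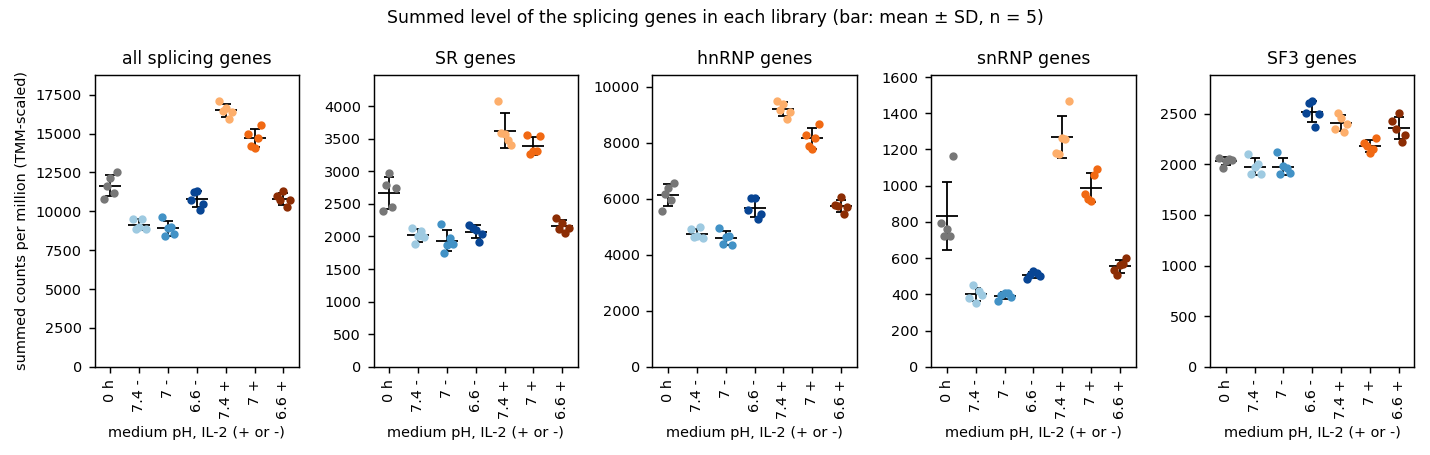
Summed level in CPM of all 52 genes and of each gene group (y axis, from 0) in the 35 libraries, by medium pH and IL-2 (x axis, + with and - without IL-2, 0 h first). Points are libraries and bars the mean ± SD of 5. With IL-2 the snRNP genes summed to 1269 ± 118 CPM at pH 7.4 and 555 ± 35 at pH 6.6, whereas the SF3 genes summed to 2407 ± 77 and 2358 ± 111.

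The first question was how an acidic medium altered these genes in CTLs supplied with IL-2. At pH 6.6 with IL-2, 39 of the 50 genes were lower than at pH 7.4 with IL-2, against 40.9% of all 13819 genes tested, and 3 were higher, against 35.4% (edgeR quasi-likelihood test with the replicate as a block, Benjamini-Hochberg adjusted p under 0.05). Their median log2 fold change was -0.85, against -0.07 over all genes. All 11 snRNP genes tested fell, with 8 of 10 SR protein genes, 13 of 20 hnRNP genes and 7 of 9 SF3 genes. The genes that rose were Hnrnph3, Sf3b1 and Srsf5. The remaining 8 were Srsf11, Sf3b2, Hnrnpc, Hnrnpdl, Hnrnph1, Hnrnph2, Hnrnpul1 and Hnrnpul2, whose log2 fold changes lay between -0.10 and 0.13 with 95% intervals reaching from -0.28 to 0.31. The share of reads outside annotated genes moved with this comparison, at 3.91% to 5.18% at pH 7.4 and 7.34% to 8.83% at pH 6.6, and its part in these differences was not tested.

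SR proteins are regulators that promote exon definition. Srsf2 (ENSMUSG00000034120), the SR protein known as SC35 that marks nuclear speckles, was measured at 785, 616, 619, 591 and 569 CPM in replicates 1 to 5 at pH 7.4 with IL-2, against 257, 225, 243, 234 and 244 CPM at pH 6.6. The groups did not overlap, and replicate 1 at pH 7.4 was the highest of its group. Its log2 fold change was -1.40 ± 0.09 (SE; edgeR adjusted p = 1.8e-15), with the same sign in 5 of 5 replicate pairs. Srsf9 (-1.32), Srsf7 (-1.25), Srsf6 (-1.19) and Srsf3 (-1.16) fell by similar amounts on the log2 scale, and Srsf1 (-0.85), Srsf10 (-0.85) and Srsf4 (-0.56) by less. Srsf5 (ENSMUSG00000021134) took the other direction. It was at 318, 301, 314, 311 and 331 CPM at pH 7.4 and at 438, 461, 474, 487 and 511 CPM at pH 6.6, so every acidic library lay above every neutral one. Its log2 fold change was 0.59 ± 0.06 (edgeR adjusted p = 8.1e-10). Srsf11 had -0.10 (95% interval -0.28 to 0.08).

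The hnRNP genes spread more widely. Hnrnpab (ENSMUSG00000020358), a protein of the A/B family that also binds mRNA in the cytoplasm, had the lowest log2 fold change of the 50 genes. It was at 406, 381, 370, 390 and 399 CPM at pH 7.4 with IL-2, against 67.8, 52.5, 54.5, 75.3 and 72.0 CPM at pH 6.6. The log2 fold change was -2.60 ± 0.10 (edgeR adjusted p = 5.2e-21). Hnrnpd, the mRNA decay factor AUF1, fell by 1.49 on the log2 scale, Hnrnpm by 1.38 and Hnrnpa2b1, the most abundant of the genes, by 1.10. Hnrnph3 (ENSMUSG00000020069), of the family that binds runs of G, was at 40.8, 41.3, 43.6, 46.3 and 43.8 CPM at pH 7.4 and at 114, 122, 137, 125 and 115 CPM at pH 6.6. This was a log2 fold change of 1.51 ± 0.10 (edgeR adjusted p = 2.9e-15), whereas its paralogs Hnrnph1 (0.07) and Hnrnph2 (0.13) did not pass the threshold and Hnrnpf fell by 1.05. Only 56.8% of the 50-base windows of Hnrnpf were unique among genes, so its level is less certain.

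The snRNP proteins form the Sm ring (Snrpb, Snrpd1, Snrpd2, Snrpd3, Snrpe, Snrpf and Snrpg) or belong to the U1 snRNP (Snrpa, Snrpc) or the U2 snRNP (Snrpa1, Snrpb2). The Sm proteins fell by unequal amounts. Snrpd3 (ENSMUSG00000020180) was at 129, 133, 146, 142 and 168 CPM at pH 7.4 with IL-2, against 30.7, 26.1, 28.2, 36.4 and 36.7 CPM at pH 6.6, a log2 fold change of -2.18 ± 0.09 (edgeR adjusted p = 9.4e-20). Snrpd1 (ENSMUSG00000002477) was at 169, 162, 180, 173 and 217 CPM against 38.5, 33.2, 39.5, 43.7 and 50.4 CPM (log2 fold change -2.14 ± 0.12, edgeR adjusted p = 1.2e-16). In both genes all acidic libraries lay far below the neutral ones. Snrpg (ENSMUSG00000057278) had the smallest fall of the group, from 55.3, 59.3, 62.3, 67.2 and 85.7 CPM to 42.6, 44.1, 42.5, 45.1 and 46.8 CPM (log2 fold change -0.57 ± 0.12, edgeR adjusted p = 6.4e-05). Its groups did not overlap either. Snrpa (ENSMUSG00000061479), the U1-A protein that binds a stem loop of U1 RNA, fell from 99.4, 108, 104, 122 and 121 CPM to 38.8, 34.4, 29.4, 41.8 and 38.1 CPM (log2 fold change -1.60 ± 0.09, edgeR adjusted p = 2.5e-16). The U2 proteins Snrpa1 (-0.66) and Snrpb2 (-0.68) fell less.

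Among the SF3 genes, Sf3b1 moved against most of the others. Sf3b1 (ENSMUSG00000025982), the large scaffold of SF3b that clamps the branch site, was at 845, 891, 894, 781 and 827 CPM at pH 7.4 with IL-2, against 1559, 1382, 1581, 1272 and 1330 CPM at pH 6.6. The log2 fold change was 0.74 ± 0.07 (edgeR adjusted p = 1.0e-10). Sf3b5 (ENSMUSG00000078348), a small subunit of the same complex, was at 57.9, 59.1, 57.4, 71.6 and 71.1 CPM and fell to 24.3, 21.8, 18.9, 27.3 and 24.1 CPM (log2 fold change -1.45 ± 0.12, edgeR adjusted p = 7.5e-13). Sf3b3 (-1.25), Sf3b4 (-1.23), Sf3b6 (-1.23), Sf3a3 (-1.18) and Sf3a2 (-1.08) fell, Sf3a1 fell by 0.50, and Sf3b2 had -0.09. Sf3b1 accounted for 848 of the 2407 CPM summed over the SF3 genes at pH 7.4 with IL-2 and for 1425 of 2358 CPM at pH 6.6 with IL-2, and the sum changed little while most of its genes fell. Only 56.4% of the windows of Sf3b4 were unique.

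**Figure D2:**
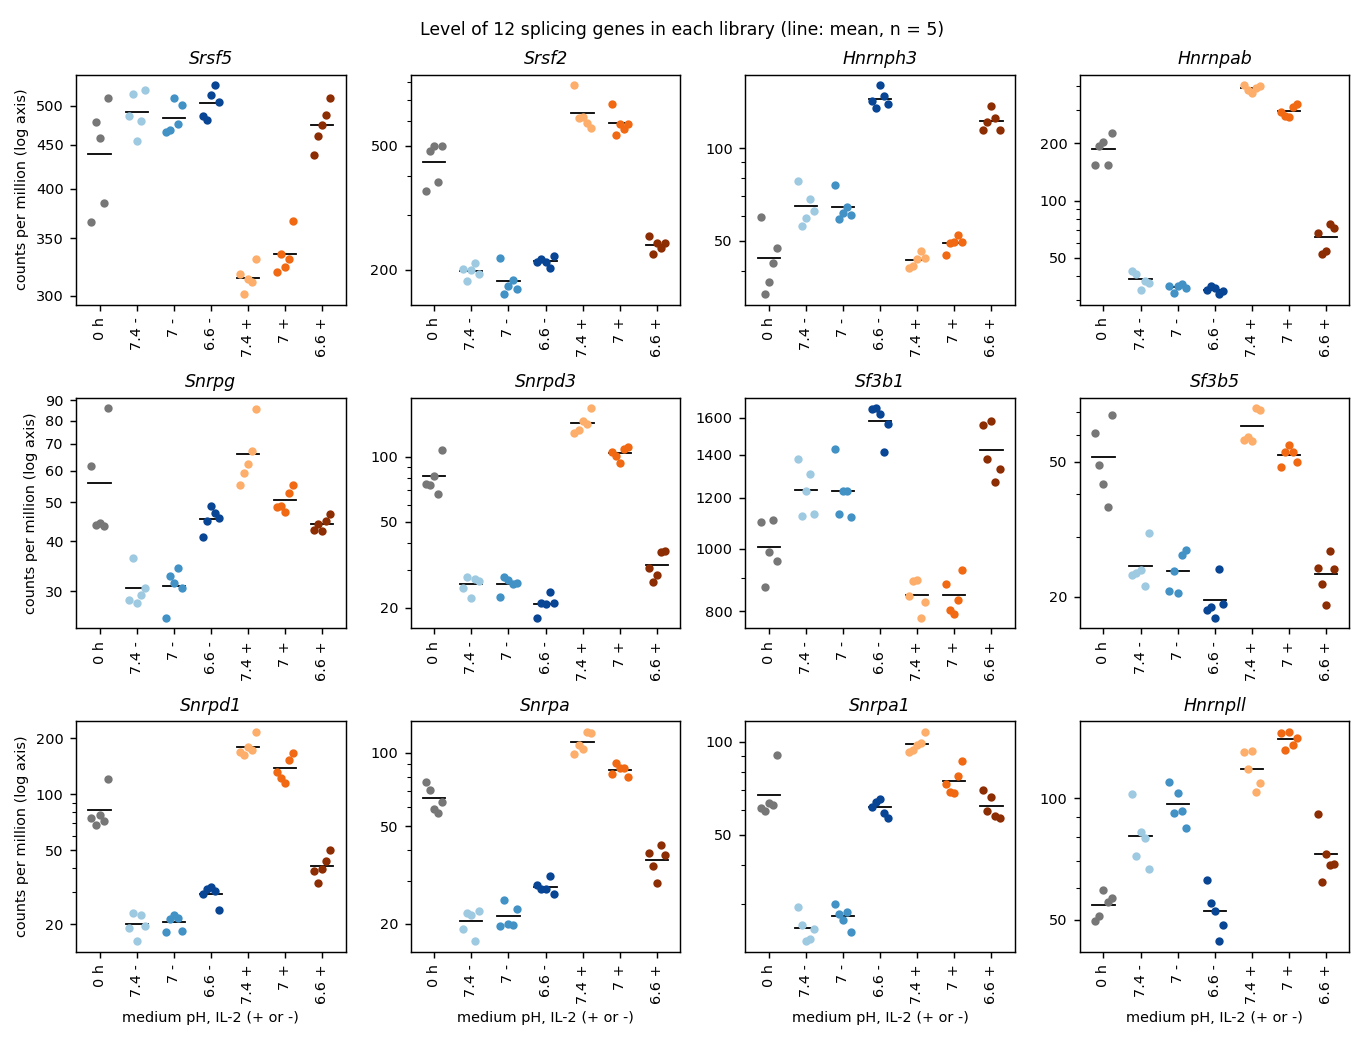
Level in CPM (log axis) of the 12 genes described by sample in the 35 libraries, by medium pH and IL-2 (x axis, + with and - without IL-2, 0 h first). Points are libraries and lines the mean of 5. Hnrnpab, Snrpd3, Snrpd1 and Snrpa are highest at pH 7.4 with IL-2 and lower in all libraries at pH 6.6 with IL-2, while Srsf5, Hnrnph3 and Sf3b1 are higher in all libraries at pH 6.6 with IL-2 than at pH 7.4 with IL-2.

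A milder acidification gave smaller differences. At pH 7 with IL-2, 19 of the 50 genes were lower than at pH 7.4 with IL-2 (9.83% of all genes) and 1 was higher (9.15% of all genes), with a median log2 fold change of -0.22 against -0.01 over all genes. Of the snRNP genes 8 of 11 fell, led by Snrpd3 (-0.46), together with 6 hnRNP genes, 4 SF3 genes and 1 SR protein gene, Srsf9 (-0.30). Snrpd3 was at 106, 100, 94.0, 108 and 112 CPM at pH 7, below each library at pH 7.4 and above each at pH 6.6. Without the replicate block, 13 genes were called in place of 20, and without replicate 2 or without replicate 3 it was 11. A fit of only the groups compared called 27 lower and 2 higher, and DESeq2 called 24 lower and 1 higher. The fitted changes at pH 7 were between -0.46 and 0.25, with intervals of the 30 genes that did not pass reaching from -0.78 to 0.38.

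The 1 gene called higher at pH 7 was Hnrnpll (ENSMUSG00000024095), the hnRNP known to drive the switch of CD45 to its short isoform in activated T cells. It was at 130, 118, 131, 104 and 109 CPM at pH 7.4 with IL-2 and at 145, 132, 146, 135 and 141 CPM at pH 7 with IL-2, a log2 fold change of 0.25 ± 0.08 (edgeR adjusted p = 0.029). Hnrnpll was no longer called without the replicate block, with the looser filter, or when replicate 2, 3, 4 or 5 was left out. At pH 6.6 with IL-2 it was at 91.3, 61.8, 72.5, 68.4 and 68.8 CPM, below every library of either other pH with IL-2 (log2 fold change against pH 7.4 of -0.71 ± 0.08, edgeR adjusted p = 1.7e-09). Without IL-2 it was at 66.7 to 102 CPM at pH 7.4, 84.3 to 110 CPM at pH 7 and 44.2 to 62.6 CPM at pH 6.6. The fall at pH 6.6 without IL-2 was -0.61, and the difference between the falls with and without IL-2 was -0.10 (95% interval -0.32 to 0.13, edgeR adjusted p = 0.45).

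Without IL-2 the changes of these genes at pH 6.6 were more mixed in direction. At pH 6.6 without IL-2, 23 of the 50 genes were higher than at pH 7.4 without IL-2 (31.6% of all genes) and 7 were lower (35.4% of all genes), with a median of 0.17 on the log2 scale against -0.03 over all genes. With library totals in place of TMM factors the counts were 19 and 10 and the median was 0.02. Of the 33 tested genes with at least 95% unique windows 12 were higher, near the share of all genes, and 7 lower. Their median was 0.10. The largest rises were those of Snrpa1 (1.29), Hnrnph3 (1.17), Hnrnpdl (1.16), Hnrnpc (0.96) and Sf3a1 (0.71), and the largest falls those of Hnrnpll (-0.61), Hnrnpa0 (-0.60) and Srsf6 (-0.37). Snrpa1 (ENSMUSG00000030512), the U2 A′ protein, was at 29.3, 25.5, 22.7, 23.1 and 24.8 CPM at pH 7.4 and at 61.6, 64.0, 65.6, 58.7 and 56.9 CPM at pH 6.6. With IL-2 it went from 92.9, 94.1, 97.3, 98.8 and 108 CPM down to 69.9, 59.9, 66.2, 57.4 and 56.8 CPM, so that both acidic groups met at about the same level. At pH 7 without IL-2, edgeR called 0 of the 50 genes in either direction (1.36% of all genes higher, 0.318% lower), 2 had an unadjusted p under 0.05, and DESeq2 also called 0. Without replicate 1, edgeR called 1. The lowest edgeR adjusted p there was 0.10, for Hnrnpll at 0.26 on the log2 scale.

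The test of the difference between both pH 6.6 effects (the interaction of pH and IL-2) was negative for 45 genes (32.8% of all genes) and positive for 3 (34.3% of all genes), with a median of -1.09 on the log2 scale against 0.04 over all genes. The largest were those of Snrpd1 (-2.68 ± 0.17), Hnrnpab (-2.41 ± 0.13), Snrpa (-2.07 ± 0.13), Snrpa1 (-1.95 ± 0.13) and Snrpd3 (-1.88 ± 0.13). Srsf5 (0.56), Sf3b1 (0.39) and Hnrnph3 (0.34) were the positive ones, the last no longer called without replicate 3 or without replicate 4. Sf3b1 and Hnrnph3 rose with and without IL-2, while Srsf5 had 0.03 (edgeR adjusted p = 0.67) at pH 6.6 without IL-2. Hnrnpll and Srsf11 did not pass the threshold.

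**Figure D3:**
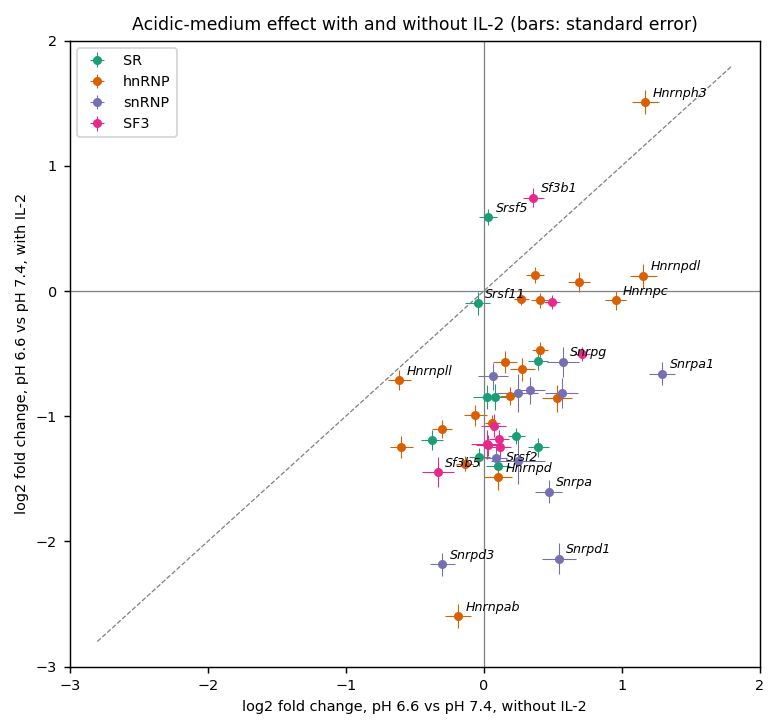
Log2 fold change at pH 6.6 relative to pH 7.4 of the 50 tested genes without IL-2 (x axis) and with IL-2 (y axis), coloured by gene group, with standard errors as bars and the line of equal change dashed. Most points lie below the line, Hnrnpll and Srsf11 lie near it, and Srsf5, Sf3b1 and Hnrnph3 lie above it. The 2 axes share no library.

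The effect of IL-2 itself was read at each pH. At pH 7.4, 46 of the 50 genes were higher with IL-2 (39.3% of all genes) and 3 were lower (41.1% of all genes), with a median log2 fold change of 1.12. Hnrnpab had the largest rise (3.34), from at most 42.8 CPM without IL-2 to at least 370 CPM with it, followed by Snrpd1 (3.16), Snrpd3 (2.48) and Snrpa (2.44). The 3 lower genes were Srsf5 (-0.64), Hnrnph3 (-0.58) and Sf3b1 (-0.54). At pH 6.6 against pH 7.4 with IL-2 these had 0.59, 1.51 and 0.74, but both comparisons share the pH 7.4 libraries with IL-2. Srsf11 had 0.00 (95% interval -0.18 to 0.18). At pH 7 again 46 genes were higher with IL-2 (37.6% of all genes) and 3 lower (39.5% of all genes), with a median of 1.00. At pH 6.6, 8 genes were higher (13.2% of all genes) and 2 lower (10.6% of all genes), with a median of 0.08. The rises at pH 6.6 were those of Hnrnpab (0.92), Snrpd3 (0.59), Snrpd1 (0.47), Hnrnpll (0.46), Snrpa (0.36), Hnrnpa2b1 (0.30), Snrpb (0.27) and Srsf7 (0.23), and the falls those of Hnrnpc (-0.21) and Sf3b2 (-0.15). The 95% intervals of all 40 other genes lay within -0.43 to 0.48. When only the groups compared were fitted, 27 genes were called at pH 6.6 in place of 10. The split of 8 and 2 was 15 and 0 with library totals and 9 and 0 with RLE factors. Neither fall was called without the replicate block, with the looser filter, or when replicate 1, 2, 3 or 4 was left out.

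**Figure D4:**
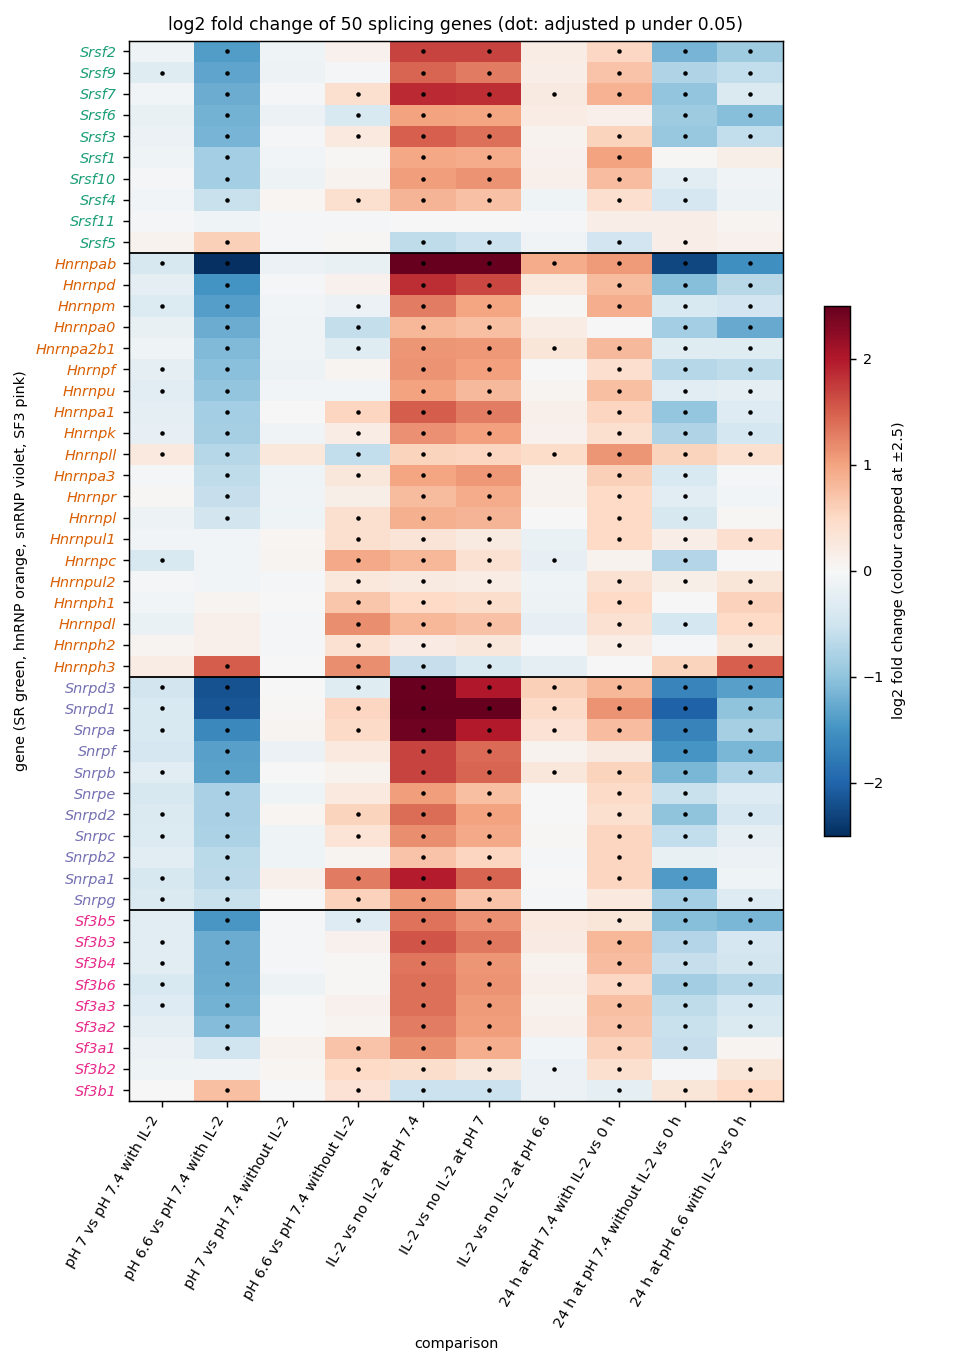
Log2 fold change (colour, capped at ±2.5) of the 50 tested genes (rows, by gene group and then by the change at pH 6.6 with IL-2) in 10 comparisons (columns), with a dot where the edgeR adjusted p was under 0.05. Columns that share a group of libraries are not independent. The column for pH 6.6 with IL-2 holds 39 dotted falls and 3 dotted rises, the column for pH 6.6 without IL-2 holds 7 and 23, and the column for pH 7 without IL-2 has no dot.

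Relative to the cells at 0 h, which had come from IL-2 culture, 41 of the 50 genes were higher after 24 h at pH 7.4 with IL-2 (29% of all genes) and 2 were lower (30.9% of all genes), with a median log2 fold change of 0.53. After 24 h at pH 7.4 without IL-2, 38 were lower (38.3% of all genes) and 6 higher (36.9% of all genes), with a median of -0.60. After 24 h at pH 6.6 with IL-2, 28 were lower (38% of all genes) and 9 higher (30.5% of all genes), with a median of -0.32. These comparisons share the 0 h libraries. Without replicate 5 at 0 h the counts were 44 higher and 2 lower, 38 lower and 5 higher, and 26 lower and 10 higher, and the last median was -0.20. Hnrnpab was at 154, 194, 203, 154 and 226 CPM at 0 h, below the libraries at pH 7.4 with IL-2 and above those at pH 6.6 with IL-2. Snrpd1 was at 75.1, 68.8, 77.5 and 72.1 CPM in replicates 1 to 4 at 0 h and at 120 CPM in replicate 5, again between these groups. Hnrnph3 at 0 h (33.5 to 59.8 CPM) lay far below the pH 6.6 libraries with IL-2, with a log2 fold change of 1.495 for the latter.

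Genes of cycling cells moved with the splicing genes in some comparisons and not in others. The 16 S phase genes (Mcm2 to Mcm7, Pcna and others) summed to 5188 to 6008 CPM at pH 7.4 with IL-2 and to 1064 to 1542 CPM at pH 6.6 with IL-2, and 16 of 16 were lower at pH 6.6. The 16 G2/M genes (Mki67, Top2a, Ccnb1 and others) summed to 6013 to 7552 CPM and 1718 to 2582 CPM in the same groups, and 16 of 16 were lower. Of all genes 40.9% were lower there. With IL-2 at pH 7.4, all 16 of each list were higher than without IL-2 (39.3% of all genes). At pH 6.6 without IL-2, 13 S phase genes were higher and 1 lower, and 16 G2/M genes were higher, than at pH 7.4 without IL-2. Of all genes 31.6% were higher and 35.4% lower in that comparison. At pH 7 without IL-2, 15 of 16 G2/M genes and 1 S phase gene were higher, while 0 of the 50 splicing genes were called. Of all genes 1.36% were higher and 0.318% lower there. The medians were 0.92 for the G2/M genes, 0.05 for the S phase genes and -0.04 for the splicing genes on the log2 scale. At pH 7 with IL-2, 1 S phase gene and 0 G2/M genes were lower, while 19 splicing genes fell (9.83% of all genes). The median log2 fold changes were nonetheless similar, at -0.15 for the S phase genes, -0.26 for the G2/M genes and -0.22 for the splicing genes. Between 0 h and pH 6.6 with IL-2, 4 G2/M genes were higher and 1 lower (median log2 fold change 0.26), and 2 S phase genes were higher and 10 lower (median -0.38). Of the splicing genes 28 were lower and 9 higher (median -0.32), against 38% and 30.5% of all genes. Without replicate 5 at 0 h, 26 splicing genes were lower and 10 higher. The part of cycling cells in the differences of the splicing genes was not tested.

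Other factors of the splicing machinery were counted from lists of 103 genes, 102 of them tested. At pH 6.6 with IL-2, 62 were lower and 29 higher than at pH 7.4, against 40.9% and 35.4% of all genes. The LSm proteins, which form the ring of the U6 snRNP, fell in 7 of 7 cases, led by Lsm6 (from 88.5 ± 4.6 to 23.7 ± 2.7 CPM, log2 fold change -1.90) and Lsm2 (-1.76). Of the SMN and PRMT5 complexes, which take part in snRNP assembly, 10 of 11 tested genes fell and 0 rose. Gemin5 (-1.67) and Prmt5 (-1.34) were among the falls, and the median was -1.19. Of the exon junction complex 5 of 6 fell, with Magohb (-2.09) and Magoh (-1.64) first. Of 18 other snRNP proteins, most of the U5 and tri-snRNP but also of the U1 and the minor snRNPs, 11 fell and 5 rose. Prpf31 (-2.36) and Eftud2 (-1.69) had the largest changes among the better expressed ones of these. Factors of the branch site and the 3′ splice site fell in 8 of 10 cases and rose in 2, with U2af2 (-1.23) and Phf5a (-0.73) the largest. The Prp19 complex, which activates the spliceosome, had 5 of 11 genes lower and 3 higher, shares near those of all genes, with Prpf19 at -1.36 and Syf2 at 1.02. Among 25 other splicing regulators 12 fell and 10 rose, again near the shares of all genes, with Ptbp1 (-1.53) and Pcbp1 (-1.46) the largest falls among the better expressed ones.

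The 6 kinases of SR proteins (Clk1 to Clk4, Srpk1 and Srpk2) all rose at pH 6.6 with IL-2, against 35.4% of all genes. Tnpo3, the import receptor of SR proteins in the same list of 7, fell by 0.68 on the log2 scale. Clk1, a nuclear kinase that phosphorylates SR proteins, went from 97.8 ± 12 CPM (SD, n = 5) at pH 7.4 with IL-2 to 638 ± 177 at pH 6.6 with IL-2, a log2 fold change of 2.69 ± 0.19 (edgeR adjusted p = 4.3e-14), and its relative Clk4 rose by 1.11. Clk1 was also higher at pH 6.6 without IL-2 (1.08) and lower with IL-2 at pH 7.4 (-2.02). Of 7 SR-related proteins 2 rose and 3 fell at pH 6.6 with IL-2, near the shares of all genes (35.4% and 40.9%). The splicing coactivators Srrm1 (1.04) and Srrm2 (0.99) had the largest changes. At pH 6.6 without IL-2, 55 of the 102 genes were higher than at pH 7.4 (31.6% of all genes) and 15 lower (35.4% of all genes), but of the SMN and PRMT5 complexes 3 were higher and 4 lower, and of the SR-related proteins 2 were higher and 1 lower.

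**Figure D5:**
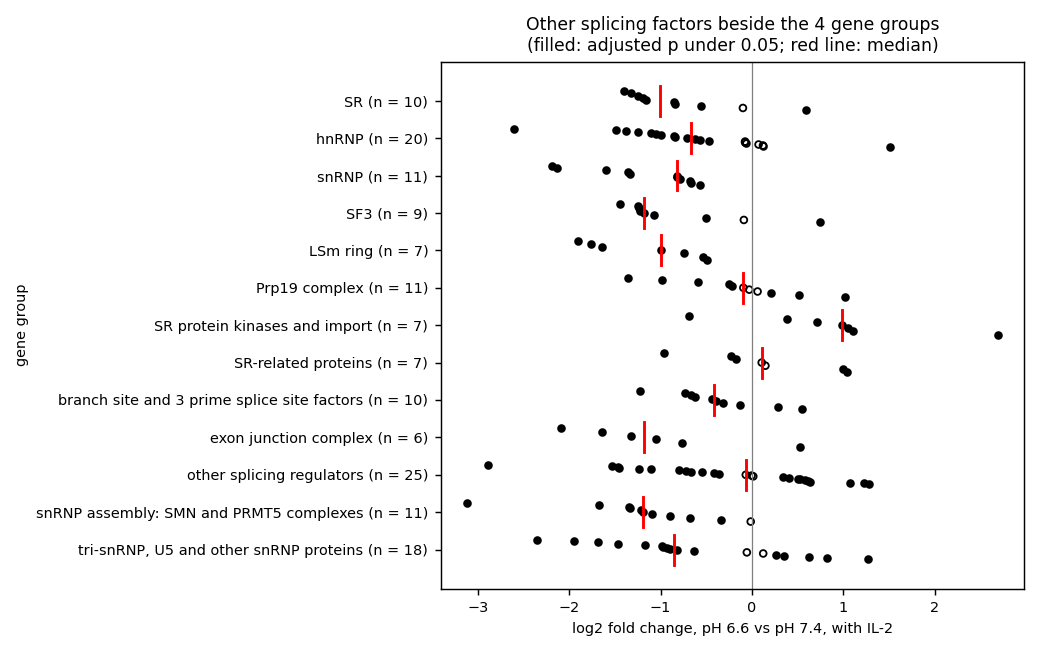
Log2 fold change at pH 6.6 relative to pH 7.4, with IL-2 (x axis) of the 4 gene groups and of 9 lists of other splicing factors (y axis, n is the number tested). Points are genes, filled where the edgeR adjusted p was under 0.05, and red lines are medians. The snRNP, LSm and SMN and PRMT5 genes lie left of 0 and the SR protein kinases right of it, with Clk1 at 2.69 and the import receptor Tnpo3 at -0.68.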

How the data were processed

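RNA of OT-I CTLs was sequenced by the authors as single reads from stranded libraries of polyadenylated RNA, and 1 table of raw counts per gene was deposited for each of 35 libraries. The submitters' processing notes name cutadapt 1.8, STAR 2.5.2b and HTSeq 0.6.1 and the GRCm38 build. Read length, annotation release and strand setting are not given in the sources used here. The tables end in rows that name no gene, which were left out of library sizes and tests: reads aligned to several places made up 32.8% to 48.3% of a table, reads outside genes 2.58% to 11.1% and ambiguous reads 0.871% to 0.997%. Such reads were not counted, so genes with near-identical copies can be too low. Against GENCODE M21 transcripts, 35 of the 52 genes had at least 95% unique 50-base windows and 17 had fewer. Exons overlapped another gene on the same strand in 6 genes and on the opposite strand in 19.

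Symbols were matched for 48349 gene identifiers. In R 4.3.3, edgeR 4.0.16 kept 13819 genes (filterByExpr, minimum count 10) and scaled the counts by TMM factors of 0.926 to 1.08. One robust quasi-likelihood model held a term for each of the 7 groups and the replicate number as a block. The p-values were adjusted by Benjamini-Hochberg over all genes tested, with a threshold of 0.05. Its biological coefficient of variation was 0.120. The depth of 16721319 to 34033340 counts on genes limits precision mainly for the rarest genes. The numbers 1 to 5 pair the libraries: same-numbered libraries deviated from their group means together, with a correlation over 0.1 in 95 of 105 pairs (median 0.273, against -0.075 for other pairs), and the series' design describes CTLs of 5 biological replicates placed in each condition. Every pair passed 0.1 in 7 of the 10 comparisons of 2 groups, with 4 of 5 pairs for IL-2 at pH 7 and for pH 6.6 with IL-2 against 0 h, and 3 of 5 for pH 7.4 without IL-2 against 0 h. Of 70 within-group pairs none was a duplicate (chi-square per degree of freedom at least 6.65). The model was also run on data simulated from the mean levels, spread and library sizes of its own fit, with 200 changed genes. That simulation held no replicate effect, and its outcome is not reported here.

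Alternatives were RLE factors, library totals without scaling, DESeq2 1.42.0, looser and stricter filters, a fit of only the groups compared, no block, leaving out each replicate, and medians over genes with unique windows. Leaving out replicate 5 at 0 h alone was added after seeing the data. The genes, the lists of other factors and cell cycle genes, and the tests were chosen with earlier results of these data known. Every one of the 52 genes could be named. Values by sample are given for the genes with the highest and the lowest change at pH 6.6 with IL-2 in each group, the 3 next largest interactions, and Hnrnpll. Of each other list the 2 largest called changes are named, among genes whose mean log2 CPM reached 3. Tnpo3, Clk2, Clk3, Srpk1 and Srpk2 were named after their values were seen.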

Additional observations from a re-analysis of the deposited data

Results flagged for a closer look

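In 7 of 119 groups of 5 libraries looked at, the highest library lay farther from the others than Dixon's 95% critical value, which chance alone passes in about 1 of 20 groups. Srsf2 was at 784.7 CPM in replicate 1 at pH 7.4 with IL-2, against 569 to 619 CPM in the others, and the summed SR protein genes were at 4079 CPM in the same library, against 3408 to 3588 CPM. Sf3b5 was at 30.8 CPM in replicate 5 at pH 7.4 without IL-2 (others 21.5 to 24.1 CPM) and at 24.2 CPM in replicate 4 at pH 6.6 without IL-2 (others 17.4 to 19.02 CPM). At 0 h, replicate 5 held Snrpd1 at 120.4 CPM (others 68.8 to 77.5 CPM), Snrpa1 at 90.3 CPM (others 59.7 to 63.4 CPM) and the summed snRNP genes at 1163 CPM (others 722 to 792 CPM). This library also had the largest share of reads aligned to several places.

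By edgeR's test of the interaction, 48 of the 50 genes responded to pH 6.6 differently when IL-2 was present. Of all genes tested, 32.8% had a negative and 34.3% a positive interaction. Among the genes described by sample the interaction was negative on the log2 scale for Snrpd1 (-2.68), Hnrnpab (-2.41), Snrpa (-2.07), Snrpa1 (-1.95), Snrpd3 (-1.88), Srsf2 (-1.50), Snrpg (-1.14) and Sf3b5 (-1.11), and positive for Srsf5 (0.56), Sf3b1 (0.39) and Hnrnph3 (0.34).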

How the results depend on the processing

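Of 281 counts and medians recomputed, 246 stayed within 1.5 times the count or within 1 SD of the pair medians, and 0 turned their direction. Over the tested splicing genes, in all comparisons and alternatives, 6750 fits of a gene were compared. Of these 166 lost the call, 97 gained it and 0 called changes were reversed. Where a value below moved, the cause was not tested.

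With IL-2 the median change at pH 6.6 (-0.85) was -0.79 with RLE factors and with DESeq2, -0.77 with library totals, -0.81 with the stricter filter, -0.78 in a fit of only the groups compared, -0.99 over genes with unique windows, and -0.87 to -0.77 when 1 replicate was left out. At pH 7 with IL-2 the number called fell from 20 to 13 without the replicate block and lay between 11 and 20 when a replicate was left out. It grew to 27 lower and 2 higher in a fit of only the groups compared, and to 24 lower and 1 higher with DESeq2. The median over genes with unique windows was -0.16. Without the block the 1 higher call at pH 7 with IL-2 and the 2 lower calls for IL-2 at pH 6.6 went to 0, and no other count of higher or lower calls moved by more than 1.5 times. At pH 7 without IL-2, 0 to 1 genes were called when a replicate was left out, and 2 in a fit of only the groups compared, which called 27 for IL-2 at pH 6.6.

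Library totals moved the median of all genes by over 0.1 in 4 comparisons, to -0.19 for pH 6.6 without IL-2, -0.20 and -0.16 for IL-2 at pH 7.4 and pH 7, and 0.27 for the interaction. The medians of the splicing genes were then 0.017, 0.96, 0.88 and -0.86, with 0.15 for IL-2 at pH 6.6 and 0.46 for pH 7.4 with IL-2 against 0 h. Over genes with unique windows they were 1.01 for IL-2 at pH 7.4, -0.95 for the interaction, -0.45 for pH 7.4 without IL-2 against 0 h and -0.24 for pH 6.6 with IL-2 against 0 h. The last was -0.25 with RLE factors and with DESeq2 and -0.24 in a fit of only the groups compared. Leaving out a replicate gave 1.06 to 1.14 for IL-2 at pH 7.4, 0.056 to 0.15 for IL-2 at pH 6.6 and -1.09 to -0.96 for the interaction. Against 0 h it gave 0.48 to 0.59 for pH 7.4 with IL-2 and -0.35 to -0.20 for pH 6.6 with IL-2, where the value closest to 0 was that without replicate 5 of the 0 h group alone.

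Srsf12 and Snrpn, which had few counts, entered only with the looser filter, which called neither in any comparison.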
